A study of Homo sapiens with 21 samples.

Results

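The 10 genes described here are 4 ligands of the bone morphogenetic protein (BMP) family (*BMP2*, *BMP4*, *BMP5* and *BMP7*), 2 modulators of BMP signaling (*BMPER* and *BAMBI*) and the 4 inhibitors of DNA binding (*ID1*, *ID2*, *ID3* and *ID4*). They were chosen by gene symbol, and every transcript listed under these symbols was taken, which gave 34 transcript identifiers of the 21537 listed in any of 6 deposited tables and 10 of 11851 genes. BMP ligands bind receptor kinases that phosphorylate SMAD1, SMAD5 and SMAD9, and these SMADs enter the nucleus with SMAD4. The ID genes are direct targets of this pathway. ID proteins have a helix-loop-helix domain without the basic DNA-binding part and hold E proteins away from DNA, and BMP signals are known to induce cardiac mesoderm and to act again in the growing myocardium.

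Poly-A RNA came from PGP1 cells, an established human iPSC line, at 5 wild-type stages. These were the undifferentiated iPSC, mesoderm (M), mesoderm of cardiac fate (CMes), progenitors (CP) and beating cardiomyocytes (CM). Cells were differentiated with the GSK3 inhibitor CHIR99021 and then the Wnt inhibitor IWP4, and CMs were enriched in lactate without glucose. There were 3 libraries at each stage and 3 from CMs of each of 2 *UBE2B-/-* lines of the same parent line, which lack an E2 enzyme of histone H2B monoubiquitylation, 21 libraries in all. Replicates were separate rounds of differentiation, and each mutant line is a single edited line.

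Each stage table averages 6 libraries of adjacent stages, so a level here is the geometric mean of estimated counts over those libraries, with the SE of the replicate spread. The tables slide along the differentiation, and the stage shared by neighboring tables cancels when their means are subtracted. The remainder is the change between the stages that are not shared, that is CMes against iPSC, CP against M, and CM against CMes. These changes are log2 values of estimated counts plus 0.5, centred on the median of all transcripts listed in both tables, with the earlier stage subtracted from the later. The tables were normalized separately, so no test was made between them and the SE stands for the error. No value per library and no library depth is in the tables. They list only transcripts that passed a q-value limit of 0.05, so an unlisted transcript has no known level, and a changed one is more likely to be listed. In bulk RNA, fewer cells of a type and less RNA per cell cannot be told apart.

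The stage labels were checked against markers. From CMes to CM, all 5 cardiomyocyte markers listed in both tables were at least 2-fold higher, with *TNNT2*, which encodes cardiac troponin T, at 10.21 (SE 0.34), while the 3 pluripotency markers listed in both, of 5, were at least 2-fold lower. Other markers differed between stages. For CMes against iPSC, 4 markers were listed in both tables. The mesoderm gene *TBXT* was higher by 5.00 (SE 1.21), the cardiac gene *GATA4* by 7.95 (SE 1.10) and the endoderm gene *FOXA2* by 10.74 (SE 0.94). The pluripotency marker *DNMT3B* had -0.18 (SE 0.30) in ENST00000348286.6, with 946 and 936 estimated counts. For CM against CMes the gene is given by ENST00000328111.6, with 8249 counts over CMes and CP, so the values do not follow 1 transcript. For CP against M, all 3 listed markers of cardiac mesoderm and progenitors were at least 2-fold higher. There, 1 of 3 mesoderm and 2 of 3 pluripotency markers were at least 2-fold lower, and 0 were at least 2-fold higher. The mesoderm markers that stayed under 2-fold rest on transcripts of low level. *EOMES* had 3.65 and 3.66 estimated counts and *MESP1* had 18.4 and 22.7, so the level of these genes is not known from them. Of 3 cardiac mesoderm and progenitor markers for CM against CMes, 2 were at least 2-fold higher and 1 at least 2-fold lower. Between M and CP the endoderm genes *FOXA2* and *SOX17* were higher by 3.59 (SE 0.67) and 8.35 (SE 0.52), the only 2 of 4 endoderm markers listed in both tables. Between CMes and CM these genes were lower by log2 values of -5.76 (SE 1.76) and -5.85 (SE 0.55), and *TTR* was higher by 5.88 (SE 0.58). Of the 5 smooth muscle and stromal markers, 2 were listed from M to CP and both were higher, with *COL3A1* at 15.47 (SE 0.35), and 4 were listed from CMes to CM, and 3 of them were at least 2-fold higher, with *COL3A1* at 7.20 (SE 0.40). No endothelial marker was listed in neighboring tables. The part of these cell types in the changes below was not tested. The tables hold no *UBE2B* level per library, so the knockout was not checked here.

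The promoters of *BAMBI*, *ID1*, *ID2* and *ID4* are shown as those of the modulator and the ID targets that were higher at CP than at M. The ligands *BMP4* and *BMP5* were higher there too, and their windows are counted but not printed. Each line gives the 250 bases before the RefSeq gene start, 5′ to 3′ on the gene's strand, from GRCh38.p14. They lie at chr10:28677271-28677520 for *BAMBI*, chr20:31605039-31605288 for *ID1*, chr2:8681806-8682055 for *ID2* and chr6:19837120-19837369 for *ID4*, all on the plus strand. Capitals mark GGCGCC, a GC-rich sequence that SMADs of the BMP branch can bind, and TATAAA on either strand.
BAMBI: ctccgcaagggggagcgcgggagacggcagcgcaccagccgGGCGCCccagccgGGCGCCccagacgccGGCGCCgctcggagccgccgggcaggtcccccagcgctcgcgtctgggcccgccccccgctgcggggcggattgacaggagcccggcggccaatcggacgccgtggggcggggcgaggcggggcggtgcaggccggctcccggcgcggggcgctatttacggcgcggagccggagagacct
ID1: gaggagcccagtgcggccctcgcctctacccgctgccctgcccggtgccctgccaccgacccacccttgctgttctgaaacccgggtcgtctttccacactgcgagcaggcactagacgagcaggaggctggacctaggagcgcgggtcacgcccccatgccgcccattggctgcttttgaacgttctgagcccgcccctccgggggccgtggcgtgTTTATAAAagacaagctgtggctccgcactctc
ID2: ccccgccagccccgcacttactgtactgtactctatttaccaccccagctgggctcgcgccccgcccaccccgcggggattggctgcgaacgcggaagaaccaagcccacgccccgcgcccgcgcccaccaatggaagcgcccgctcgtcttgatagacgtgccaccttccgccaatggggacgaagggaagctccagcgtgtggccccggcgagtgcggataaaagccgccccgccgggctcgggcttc
ID4: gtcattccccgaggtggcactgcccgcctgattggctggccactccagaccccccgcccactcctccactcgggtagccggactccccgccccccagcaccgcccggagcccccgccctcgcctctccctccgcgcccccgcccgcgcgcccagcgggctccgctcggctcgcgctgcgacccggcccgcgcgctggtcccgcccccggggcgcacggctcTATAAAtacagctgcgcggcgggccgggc

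GGCGCC is its own reverse complement. It occurred 3 times in the *BAMBI* window and in none of the ID windows, and 16.4% of 35116 promoter windows of this length hold it. Windows were found for 8 of the 10 genes, 11 windows in all, and 4 of these held it, which belong to *BAMBI*, *BMP4* and *BMPER*. TATAAA was in the windows of *ID1*, *ID4* and *BMP5*, against 10.7% of all windows, and no member window held the longer SMAD palindrome GTCTAGAC, which 0.182% of all windows hold. The GC content of the printed windows was 81.2% for *BAMBI*, 66.0% for *ID1*, 69.2% for *ID2* and 78.8% for *ID4*. A match is a description of the letters and shows no binding.

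The genes entered the tables at different points. In the table of iPSC and M, 3 members were listed, *BMP7*, *BAMBI* and *ID2*. In that of M and CMes 9 were listed through 20 transcripts, in that of CMes and CP 7 through 14, and in that of CP and CM all 10 through 28. Those tables hold 2613, 4709, 5356 and 7886 genes. *BAMBI* and *ID2* were the members listed at all 4 transitions.

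**Figure D1:**
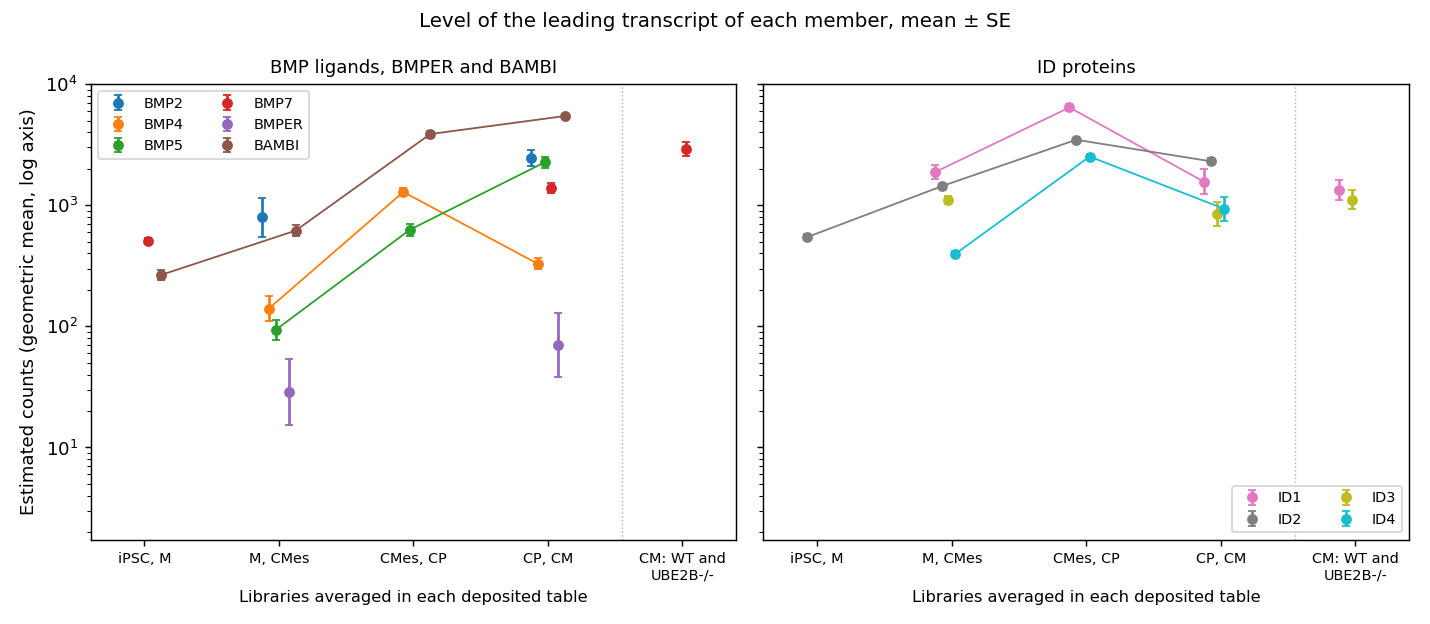
Geometric mean of estimated counts (log axis) of 1 transcript for each gene in each deposited table, with bars of 1 SE from the spread between replicates. For BMP4 the MANE transcript and for BMPER the most abundant transcript are drawn; lines join neighboring stage tables, and the points right of the dotted line average 9 CM libraries. ID1, ID2, ID4 and BMP4 peak in the table of CMes and CP, while BAMBI and BMP5 keep their highest level in that of CP and CM.

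*BMP4*, the ligand best known for inducing mesoderm and cardiac precursors, had its highest level in the table of CMes and CP. Its MANE transcript (ENST00000245451.9, chr14:53949736-53956825, minus strand, 4 exons) had 140.1 estimated counts over M and CMes, 1286 over CMes and CP, and 328 over CP and CM. The change was 6.01 (SE 0.51) for CP against M and -3.49 (SE 0.27) for CM against CMes. The signs were opposite. The technical variance of this transcript was 136% of the residual variance over M and CMes and 406% over CP and CM, so these SEs may be too small. With the moderated variance of the Sleuth fit, a choice made after the results were seen, they were 0.60 and 0.48.

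A second coding transcript of *BMP4* (ENST00000559087.5) was more abundant at the earlier stages, with 299.8 counts over M and CMes and 2231 over CMes and CP. Over CP and CM it had 116 counts. It was higher by 5.41 (SE 0.57) at CP than at M, and the change for CM against CMes was -8.08 with an SE of 2.06. The replicates of this transcript differed by an SD of 3.53 on the log2 scale over CP and CM, the most of the 7 *BMP4* transcripts listed there, and by 3.13 over the 9 CM libraries of the *UBE2B-/-* fit. A shorter coding transcript (ENST00000558984.1) had 29.9 and then 675 counts, a change of 8.56 (SE 1.49). The coding transcript ENST00000559501.1 had 45.6 counts over CMes and CP and 11.4 over CP and CM, a change of -3.46 (SE 1.21) for CM against CMes. In 5 of the 16 values listed for the gene, the technical variance of Kallisto and Sleuth was larger than the whole residual variance, and the SEs, which rest on the residual variance, may be too small there. Summed over the transcripts listed in both tables, the change for CM against CMes was -5.49.

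*BMP5*, a ligand of another branch of the family that is expressed in the developing myocardium, was higher at each later stage compared. Its single listed transcript (ENST00000370830.4, chr6:55753653-55875590, minus strand, 7 exons) had 93.2 estimated counts over M and CMes, 629 over CMes and CP, and 2256 over CP and CM. It was higher at CP than at M by 5.12 (SE 0.46) and higher at CM than at CMes by 4.13 (SE 0.32). The latter exceeded 93.6% of all transcripts listed in both tables. *BMP4* and *BMP5* thus both stood above M at CP and stood on opposite sides of CMes at CM.

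*BMP2*, which signals to myocardium at the atrioventricular canal, and *BMP7*, a close relative of *BMP5*, were not listed in neighboring tables, so no change can be formed for them. *BMP2* (ENST00000378827.5, chr20:6767686-6780246, plus strand) had 793 counts over M and CMes and 2440.2 over CP and CM. Its replicates were far apart over M and CMes, with an SD of 1.34 on the log2 scale where the 500 transcripts nearest in level had a median of 0.18. *BMP7* (ENST00000395863.8, chr20:57168753-57266641, minus strand) had 508 counts over iPSC and M and 1382 over CP and CM. Each of these pairs of levels is on its own scale, and the gap between them was not tested.

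**Figure D2:**
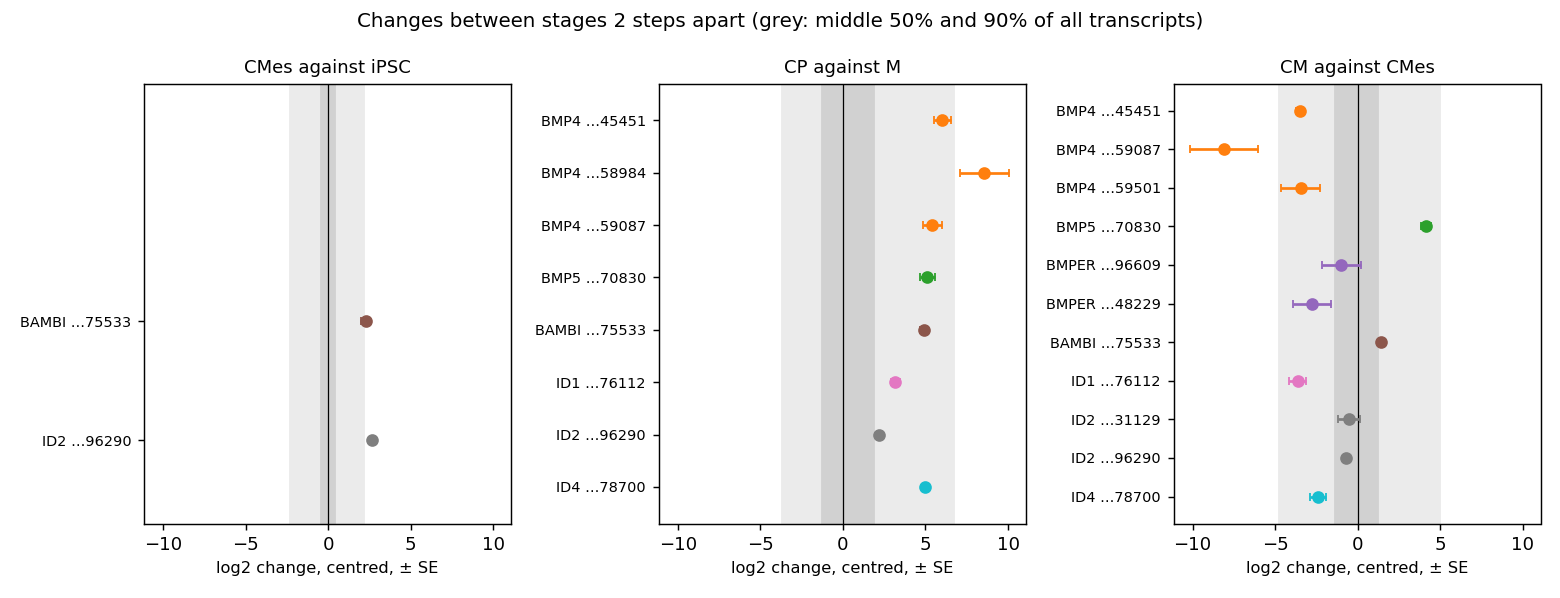
Change (log2, centred on the median of all transcripts) of every member transcript listed in both of 2 neighboring tables, with bars of 1 SE and labels ending in the last digits of the transcript identifier; grey bands hold the middle 50% and 90% of all transcripts. All 8 member transcripts lie to the right of 0 for CP against M, and 9 of 11 lie to the left for CM against CMes.

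*BAMBI*, a pseudoreceptor that lacks a kinase domain and dampens BMP and TGF-beta signals, was higher at the later stage in all 3 comparisons. Its coding transcript (ENST00000375533.6, chr10:28677521-28682932, plus strand, 3 exons) had 266 estimated counts over iPSC and M, 617 over M and CMes, 3864 over CMes and CP, and 5442 over CP and CM. It was higher by 2.27 (SE 0.27) at CMes than at iPSC, by 4.91 (SE 0.24) at CP than at M, and by 1.43 (SE 0.15) at CM than at CMes. Adding the steps that share CMes gave 3.64 (SE 0.19) for CM against iPSC, relative to the median of the 397 transcripts listed in all 4 stage tables. A transcript with a retained intron (ENST00000497699.1) had 50.1 counts over M and CMes and 222 over CP and CM.

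*BMPER*, a secreted protein that binds BMPs and can raise or lower their activity, was at low counts in each listed transcript. Over CP and CM its 10 listed transcripts summed to 261 counts, beside 478 for the 7 of *BMP4*. Of its 14 listed transcripts, 5 are coding, 6 are annotated for nonsense-mediated decay and 3 hold a retained intron or no defined coding sequence. The most abundant (ENST00000648618.1, annotated for decay) had 28.8 counts over M and CMes and 69.9 over CP and CM. The MANE transcript (ENST00000649409.2, chr7:33905539-34156427, plus strand, 15 exons) had 7.51 and 15.2. For CM against CMes, ENST00000648229.1 had a change of -2.78 (SE 1.16) and ENST00000496609.1 one that lies at the 2-fold limit and is smaller than its SE of 1.17. Technical variance exceeded the residual variance in 8 of the 21 values of the gene.

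**Figure D3:**
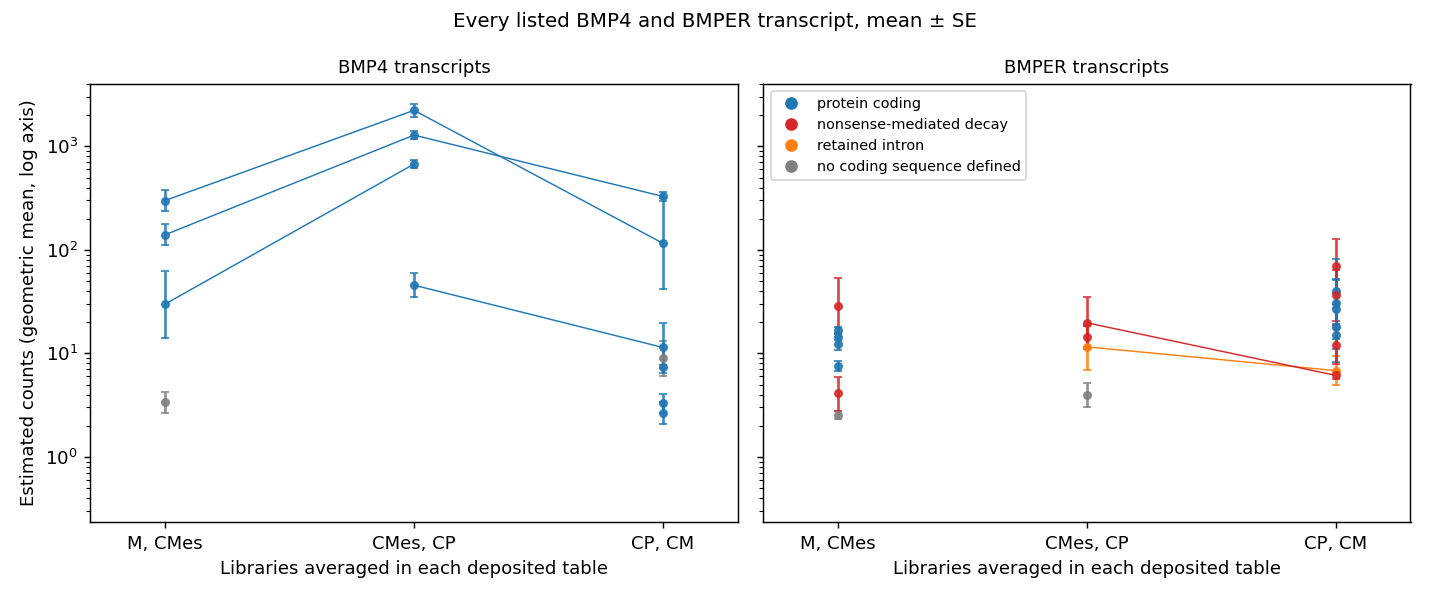
Geometric mean of estimated counts (log axis) of every listed BMP4 and BMPER transcript in 3 stage tables, with bars of 1 SE and colors for the GENCODE type; lines join neighboring tables. The leading BMP4 transcripts peak over CMes and CP, while BMPER transcripts reach at most 69.9 counts.

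*ID1*, *ID2* and *ID4* shared a peak around CMes and CP. The leading *ID1* transcript (ENST00000376112.4, chr20:31605289-31606510, plus strand, 2 exons) had 1874 estimated counts over M and CMes, 6409 over CMes and CP, and 1561 over CP and CM. It was higher at CP than at M by 3.17 (SE 0.29), and its change for CM against CMes was -3.63 (SE 0.50). The SE of a change takes the spread as equal at all stages. For CM against CMes it may be too small for *ID1* and *ID4*, given the wider spread among CM libraries described below. The other listed *ID1* transcript (ENST00000376105.4), a single-exon form, had 140.0 counts over M and CMes and 118 over CP and CM, below the spliced form in both tables.

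*ID4* (ENST00000378700.8, chr6:19837370-19842197, plus strand) had 395 counts over M and CMes, 2519 over CMes and CP, and 933 over CP and CM. It was higher by 4.96 (SE 0.15) at CP than at M, and the change for CM against CMes was -2.42 (SE 0.47). At CP against M it stood above 91.3% of all transcripts, beside *BAMBI* at 91.2%, and at CM against CMes above 13.8%.

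*ID2* was the only ID gene listed at all 4 transitions. Its leading transcript (ENST00000396290.2, chr2:8682056-8684461, plus strand, 3 exons) had 545 counts over iPSC and M, 1434 over M and CMes, 3468 over CMes and CP, and 2303 over CP and CM. It was higher by 2.64 (SE 0.14) at CMes than at iPSC and by 2.17 (SE 0.10) at CP than at M. The change for CM against CMes was -0.74 (SE 0.14), which was under 2-fold but -1.18 without centring, and that for CM against iPSC was 1.83 (SE 0.17). A shorter transcript (ENST00000331129.3) had -0.53 (SE 0.67) for CM against CMes, within its SE.

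*ID3* was listed under 2 identifiers with identical values in 3 tables, and they were counted once. Of them ENST00000374561.6 (chr1:23557926-23559501, minus strand) is in GENCODE 44 and the other is not. Each entry had 1111 counts over M and CMes, 847 over CP and CM, and 1114 over the 9 CM libraries. No neighboring tables list it, so no change was formed.

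In all, 8 of 8 member transcripts, from 6 genes, were at least 2-fold higher at CP than at M, where 37.2% of all 2427 transcripts were, and 0 were at least 2-fold lower, against 28.7%. Their median was 5.04, and 3 of them belong to *BMP4*. For CMes against iPSC both listed members were at least 2-fold higher, against 13.9% of 1551 transcripts, and 0 were at least 2-fold lower, against 14.3%. For CM against CMes, 7 of 11 were at least 2-fold lower, against 30.8% of 3743, and 2 were at least 2-fold higher, *BMP5* and *BAMBI*, against 27.9%. The 7 lower ones come from *BMP4* and *BMPER*, each through more than 1 transcript, and from *ID1* and *ID4*. Those of *BMPER* had at most 19.7 estimated counts, and its ENST00000496609.1 had a change of -1.001 with an SE of 1.17. Without centring, *BAMBI* had a change of 0.99 for CM against CMes, and 1 transcript was at least 2-fold higher. These shares describe listed transcripts, and transcripts of a gene share reads.

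Per kilobase of transcript, the members differed widely over CP and CM. *BAMBI* led with 3218 estimated counts per kilobase, followed by *ID2* with 1773, *ID1* with 1588, each *ID3* entry with 892, *BMP2* with 688, *BMP5* with 568, *BMP7* with 344, *ID4* with 241, the MANE transcript of *BMP4* with 170.0 and the leading *BMPER* transcript with 26.1. *BAMBI* stood 9.10 SE above *ID2*, *BMP5* 3.45 SE above *BMP7*, and *BMP4* 3.07 SE above *BMPER*. The other 6 neighbors in this order lay within 2 SE of each other, for example *ID2* and *ID1* at 0.45 SE. The order compares single transcripts, and *BMPER* is spread over 10 listed ones. The SE of the *BMP4* transcript may be too small, since its technical variance was 406% of the residual variance. The place of *ID3* rests on counting its identical entries once. Their sum, if both have the same length, is 1784 per kilobase, beside the 1773 of *ID2*.

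The spread between replicate plates differed among the ID genes. Over CP and CM, the residual SD on the log2 scale was 0.84 for *ID1*, 0.82 for *ID3* and 0.80 for *ID4*, but 0.20 for *ID2* and 0.12 for *BAMBI*. With the moderated variance of the Sleuth fit the SD of *BAMBI* was 0.18, so SEs of *BAMBI* that rest on 0.12 may be too small. The 500 transcripts nearest in level had medians between 0.17 and 0.20, and 99.4%, 98.2% and 98.4% of them had a smaller residual variance than *ID1*, *ID3* and *ID4*. For *ID2* that share was 58.8% and for *BAMBI* 17.2%. Technical variance made up 0.69% of the residual variance for *ID1*, 0.38% for *ID3* and 0.83% for *ID4*. Listed transcripts passed a q-value limit, so the neighbors are not a sample of all transcripts.

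In the preceding table, over CMes and CP, the SD was 0.21 for *ID1*, 0.17 for *ID4* and 0.12 for *ID2*. The CP libraries enter both fits, and at most they could hold the whole variance of the earlier fit, an SD of 0.29 for *ID1* and 0.24 for *ID4*. If the CP libraries spread alike in both fits, the SD among wild-type CM libraries was then at least 1.15 for *ID1* and 1.11 for *ID4*, and at least 0.23 for *ID2*. The residual variance of *ID1* was 16.4 times as large over CP and CM as over CMes and CP, and that of *ID4* 23.0 times, where the median of 3743 transcripts was 1.66 times. Of these transcripts, 91.7% and 94.0% had a smaller ratio.

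**Figure D4:**
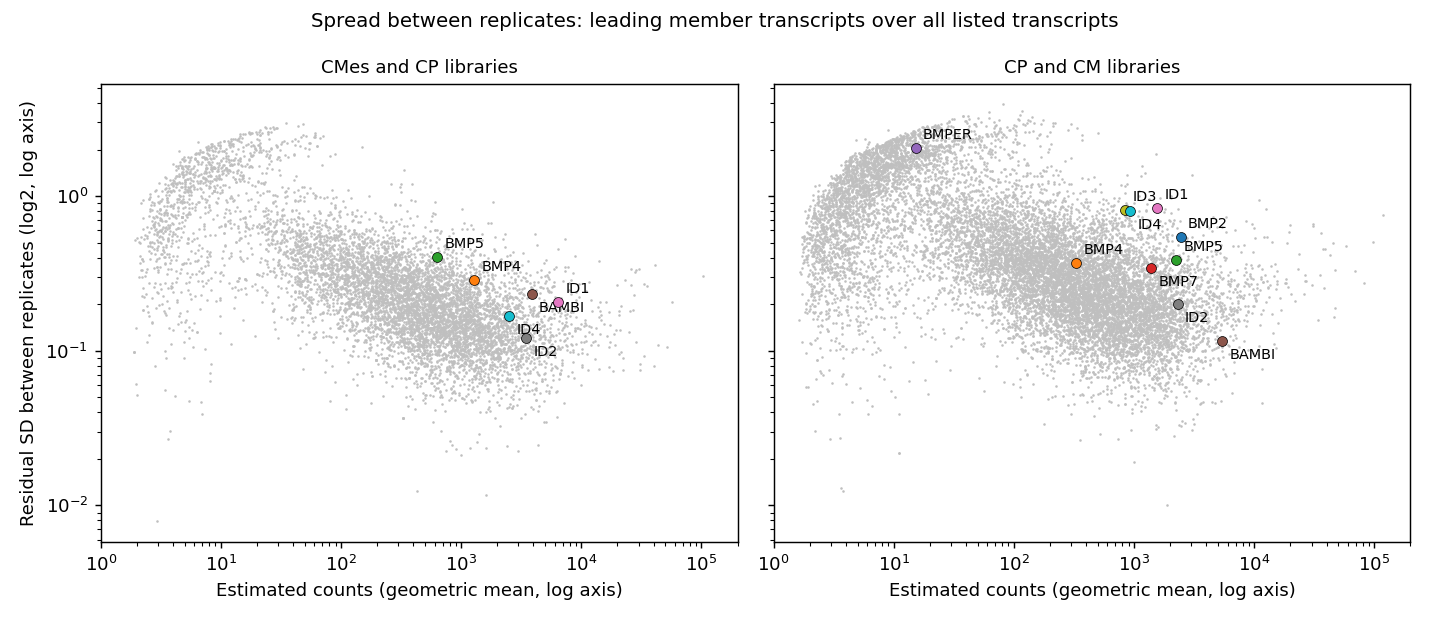
Residual SD between replicates (log2, log axis) against the geometric mean of estimated counts (log axis) for all listed transcripts (grey) and the MANE transcript of each listed member, over CMes and CP (left) and CP and CM (right). ID1, ID3 and ID4 sit near 0.8 on the right, above at least 98.2% of the transcripts nearest in level. ID2 at 0.20 sits above 58.8% of them and BAMBI at 0.12 above 17.2%.

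Among the ligands over CP and CM, *BMP2* had an SD of 0.54, *BMP5* of 0.39 and *BMP7* of 0.34, each above the median of 0.17 to 0.18 of its neighbors in level. The SE of the change for CM against CMes was 0.32 for *BMP5* and 0.15 for *BAMBI*.

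The *UBE2B-/-* tables come from a single fit of 9 CM libraries, since all 1992 transcripts listed in both have the same mean in each. They are 64.5% of the 3088 transcripts listed for line 1 and 63.6% of the 3134 listed for line 2. Members listed for both lines were *ID1*, through both transcripts, and the *BAMBI* transcript with a retained intron. *ID3* was listed for line 1 only, and *BMP7* and *BMP4* (ENST00000559087.5) for line 2 only, and a difference between the lines was not tested. The leading *ID1* transcript had 1329.9 estimated counts over the 9 libraries and the single-exon form 126. *BMP7* had 2917, the *BAMBI* transcript 317 and the *BMP4* transcript 138. The means pool wild-type and mutant libraries, so the direction and size of a mutant change cannot be read from them, and the columns of the study's own comparison were not used.

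This fit holds the same 3 wild-type CM libraries as that of CP and CM, so its spread is not an independent measure. The residual SD was 0.81 for the leading *ID1* transcript and 0.75 for *ID3*, where the transcripts nearest in level had a median of 0.26 each. Of the neighbors in the line 1 table, 99.4% and 98.2% had a smaller variance. If the wild-type CM libraries had the smallest possible SD of *ID1* given above, 1.15, they alone would give 0.66 of the 0.81, on the same scale, with no spread in the mutant lines. *BMP7* had an SD of 0.55.

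Other genes of the BMP pathway were taken from a fixed list of 55 genes, of which 45 were listed in some table. Each gene is given by its most abundant transcript over the later pair of stages, a choice that can favor transcripts that rose. For CP against M, 13 of the 17 listed in both tables were at least 2-fold higher and 1 was at least 2-fold lower, with a median of 4.55. Of all transcripts, which were not chosen in this way, 37.2% and 28.7% were. All 3 SMADs were among the higher ones. The inhibitory SMADs, which are feedback targets of the pathway, had 6.51 (SE 0.33) for *SMAD6* and 2.41 (SE 0.26) for *SMAD7*. The ligands *BMP6* and *BMP10*, the latter a factor of trabecular myocardium, had 6.74 (SE 0.55) and 9.36 (SE 0.60). All 6 listed target transcription factors were at least 2-fold higher, among them *MSX2* with 6.02 (SE 0.50) and *HAND1* with 10.67 (SE 0.24). *HAND1* and *GATA4* are also stage markers, so in each comparison the pathway counts and the check of stage labels share their values. Of 4 listed antagonists, 2 were at least 2-fold higher, *FSTL1* with 2.17 (SE 0.11) and *GREM1* with 1.11 (SE 1.07). The antagonist *NBL1* was lower, with -2.17 (SE 0.26), and *TWSG1* had 0.16 (SE 0.16). The receptor *BMPR2* had 0.74 (SE 0.14).

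For CM against CMes, 4 of 18 pathway genes were at least 2-fold higher and 5 at least 2-fold lower, with a median of -0.54. The shares of all transcripts were 27.9% and 30.8%. *SMAD6* and *SMAD7* had -0.55 (SE 0.21) and 0.53 (SE 0.20), both under 2-fold, beside the -3.63 of *ID1*. This *SMAD6* value is for ENST00000288840.10, while those of the other comparisons are for ENST00000612349.1, so they do not follow 1 transcript. The higher genes were the receptor *BMPR2* with 2.78 (SE 0.16), the ligand *GDF6* with 7.74 (SE 0.48), the antagonist *NOG* with 2.84 (SE 0.50) and the transcription factor *TBX20* with 4.50 (SE 0.31). The coreceptor *RGMA* had -6.11 (SE 0.73) and *NEO1*, its receptor, -1.63 (SE 0.16). Also at least 2-fold lower were the antagonist *CER1* with -4.89 (SE 0.89) and the transcription factors *HAND1* with -1.30 (SE 0.22) and *DLX5* with -1.12 (SE 1.28). For CMes against iPSC, 3 of 8 genes were at least 2-fold higher and 1 at least 2-fold lower, against 13.9% and 14.3% of all transcripts. *SMAD6* was at 4.58 (SE 0.36). Of 3 listed antagonists, *CHRDL1* was at -2.73 (SE 0.22), *FST* at 1.98 (SE 0.28) and *FSTL1* at 0.98 (SE 0.13). Of the E proteins that ID proteins bind, *TCF12* had -0.29 (SE 0.54) for CMes against iPSC and *TCF4* -0.11 (SE 0.21) for CM against CMes, both within their SE. Each value rests on 1 transcript of low level, with 5.35 and 5.07 estimated counts for *TCF12* and 64.6 and 53.3 for *TCF4*. The level of the whole gene is not known from them.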

How the data were processed

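RNA was sequenced from 21 libraries. After read trimming, the authors estimated transcript abundance with Kallisto (build hg38) and fitted adjacent stages, or wild-type and both *UBE2B-/-* lines, in Sleuth. Their 6 deposited tables hold, for each transcript with a q-value up to 0.05, the mean natural log of normalized estimated counts plus 0.5, and variance scores that the authors' Sleuth fit computed on the squared natural-log scale. They also hold the study's own effect with its standard error, p-value and q-value, which were not used here. There are 0 columns of values per library, so depth and precision per library are unknown.

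Counts were recovered from the means and changes from the difference of neighboring means, multiplied by 2 since each mean covers 2 stages. The median over all shared transcripts was subtracted, which was 0.15, 0.38 and -0.44 on the log2 scale for CMes against iPSC, CP against M and CM against CMes. It was taken among listed transcripts and holds the difference in scale. SEs used the sum of biological and technical variance, 3 libraries per stage, and took the spread as equal at all stages. The script for the sliding difference was checked on simulated data with the same spread at every stage, so that check does not cover unequal spread. Lengths and positions came from GENCODE 44, in which 33 of 34 member identifiers were found with the same version, and promoters from RefSeq on GRCh38.p14. Every listed transcript of the 10 genes was analysed, and the text names the most abundant, the MANE transcript and those with a change. Markers and other pathway genes are given by the transcript with the highest level over the later pair of stages. The members and lists were chosen with earlier results of these data known. Python 3.11.15, pandas 2.3.3 and matplotlib 3.10.9 were used. The spread is that between separate plates of 1 cell line. No statistical test between groups was run, and the alternatives were other centrings, summed transcripts, the moderated variance and, for levels only, the pseudocount.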

Additional observations from a re-analysis of the deposited data

How the results depend on the processing

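The counts of member transcripts at least 2-fold higher or lower in the 3 comparisons were recomputed with no centring, centring on the mean, and centring on transcripts with at least 10 estimated counts. They stayed within 1.5 times the reported count except for CM against CMes, where without centring 1 transcript instead of 2 was at least 2-fold higher. Of 15 changes of leading transcripts, 8 moved by more than the replicate SD without centring and 5 with the mean, and 1 of 4 moved when transcripts were summed. None of these changed sign. The moderated variance moved 3 of 36 replicate SDs by over 1.5 times, and the pseudocount moved 0 of 36 levels by more than the replicate SD. No replicate could be left out, since the tables used hold no value per library. No paired analysis was possible because the columns carry no replicate number. Library depth is unknown, so low counts such as those of *BMPER* have no counting interval.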
